A study of Homo sapiens with 6 samples.

Results

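The genes described are 8 components of the apoptosis machinery: the death receptors TNFRSF10A, TNFRSF10B and FAS, the initiator caspases CASP8 and CASP9, the caspase-8 inhibitor CFLAR, the caspase inhibitor XIAP and its antagonist DIABLO. They were taken from the gene table by symbol. All 8 were found among its 17687 genes, and all 8 passed the filter on low counts that left 14005 genes for testing.

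RNA was sequenced from KHM-5M cells, an established human line labelled as anaplastic thyroid cancer and grown in RPMI-1640 medium with fetal bovine serum. Control cells received phosphate-buffered saline (PBS), the SS group received sodium selenite (SS), and the SS+NAC group received SS together with N-acetylcysteine (NAC), a thiol that lowers reactive oxygen species. Each group had 2 libraries, called replicates 1 and 2, with 17645545 to 23810056 expected counts per library. The comparison of SS with control gave the response to selenite, and the comparison with SS+NAC asked how far that response differed when the thiol was present. All libraries came from 1 line, and no group received NAC alone, so SS+NAC differs from control in both agents. The methods call the libraries biological replicates and the labels do not say whether they are separate cultures, so the p-values measure only the spread between these libraries. The dose of SS and the exposure time of the sequenced cells are not given in the sources used here.

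The thyroid label was checked against marker genes in TPM, RSEM's level per length scaled to the library. PAX8, a thyroid transcription factor, ranged from 104 to 134 TPM and HHEX from 25.9 to 29.8 TPM over the 6 libraries. Markers of differentiated thyroid cells were near 0, with at most 0.30 TPM for TG, 0.69 TPM for SLC5A5 and 0.20 TPM for NKX2-1. TSHR was not analysed here. The epithelial keratin KRT8 reached at least 977 TPM in every library, CDH1 at most 0.29 TPM, and the mesenchymal filament gene VIM at least 5744 TPM. The 8 epithelial markers summed to 2150 and 2195 TPM in control, 2341 and 2586 TPM with SS and 2107 and 1779 TPM with SS+NAC. The 8 mesenchymal markers summed to 7328 and 7628 TPM in control, 7645 and 7516 TPM with SS and 7809 and 7917 TPM with SS+NAC, of which VIM made up the most. VIM was higher in both SS libraries than in all others, TWIST1 overlapped, COL1A2 was near 0, and ZEB1, ZEB2, CDH2, FN1 and COL1A1 were lower in both SS libraries than in all others, in TPM and with no test. The 8 leukocyte markers summed to 442 and 457 TPM in the control libraries, 388 and 371 TPM in the SS libraries and 469 and 478 TPM in the SS+NAC libraries. Of these markers 3 had at least 1 TPM in every library, LCP1 was the most abundant, and the defining leukocyte gene PTPRC had at most 0.77 TPM. The 6 thyroid markers in the table summed to 164 and 155 TPM in control, 147 and 131 TPM with SS and 156 and 163 TPM with SS+NAC, and the part of such sums in the results was not tested. Summed markers of endothelial, melanocyte and neuroendocrine cells had at most 1.0, 3.6 and 0.9 TPM. Relative to the authors' FPKM, the scaling to TPM lowered the SS libraries by 0.18 on the log2 scale. The length trend described below was not taken out of these marker levels either. How much of the differences between groups in marker TPM goes with the scaling or the trend was not tested.

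In the extrinsic pathway of apoptosis, a ligand of the tumour necrosis factor family binds a death receptor at the cell surface. The receptor then gathers the adaptor FADD and procaspase-8, and CFLAR can take the place of caspase-8 in that complex and limit its activation. In the intrinsic pathway, cytochrome c released from mitochondria drives APAF1 and procaspase-9 into the apoptosome, XIAP binds and inhibits caspase-9, and DIABLO, released from the same mitochondria, binds XIAP and frees the caspase.

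DIABLO and caspase-9 reach the same groove of XIAP with a short IAP-binding motif that opens a processed chain. The coding bases around it are shown because this is where the proteins of 3 of the genes described (DIABLO, CASP9 and XIAP) meet. Both stretches are from GENCODE release 29 transcripts on GRCh38, written 5′ to 3′ along the coding strand, with the codons of the 4 motif residues in capitals. The DIABLO stretch lies on the minus strand of chromosome 12, at 122224512 to 122224547 in exon 2 and at 122218386 to 122218397 in exon 3, and its motif starts at residue 56 of 239. The CASP9 stretch lies in exon 7 on the minus strand of chromosome 1, at 15495346 to 15495393, and its motif starts at residue 316 of 416.
DIABLO: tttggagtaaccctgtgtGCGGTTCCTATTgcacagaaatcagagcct
CASP9: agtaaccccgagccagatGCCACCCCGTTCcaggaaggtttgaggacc
The capitals mark 12 coding bases in each, which the mRNA measurements described next cover only as part of the whole transcript.

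Selenite was accompanied by a lower XIAP and a higher DIABLO mRNA level, relative to the whole library, and neither was called in SS+NAC against control. Relative to genes of like length, with the length offset described below, XIAP turned to 0.17 against control and 0.11 against SS+NAC, and DIABLO was at 0.17 and 0.27, of which only the last was called. That call ended when the replicate number was fitted as a block beside the offset, with the same fold change (0.27) and an SE of 0.08 beside 0.07. The replicate numbers do not pair the samples, as described in the section on processing choices. The receptors and initiator caspases were not called between SS and control in either fit. A gene was called at an adjusted p of at most 0.05. In SS against control, 2 of the 8 genes were called, where 40.0% of all tested genes were (5609 of 14005). DIABLO was the 1 called gene that was higher in SS (18.6% of all tested genes) and XIAP the 1 that was lower (21.4%). In SS against SS+NAC, 3 of 8 were called against 42.7% of all genes, with DIABLO higher (19.6%) and TNFRSF10B and XIAP lower (23.1%). In SS+NAC against control, edgeR called 0 of 8 against 2.01% of all genes (282). There 1 of the 8, TNFRSF10B, had an unadjusted p under 0.05, and DESeq2's Wald test also called 0. With Bonferroni adjustment, which the study's methods name, edgeR called 0 of 8 in each of the 3 comparisons. At an unadjusted p under 0.05 in edgeR were 2, 5 and 1 of the 8, beside 6829, 7015 and 2256 of the 14005 tested genes. DESeq2's Wald test with Benjamini-Hochberg adjustment called 2, 2 and 0 of the 8. The share of the 8 called was not above that of all genes in any comparison. The first and second comparison share the SS libraries, so their values are given side by side and not as independent results. In bulk RNA, fewer cells with a transcript and less of it per cell cannot be told apart.

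**Figure D1:**
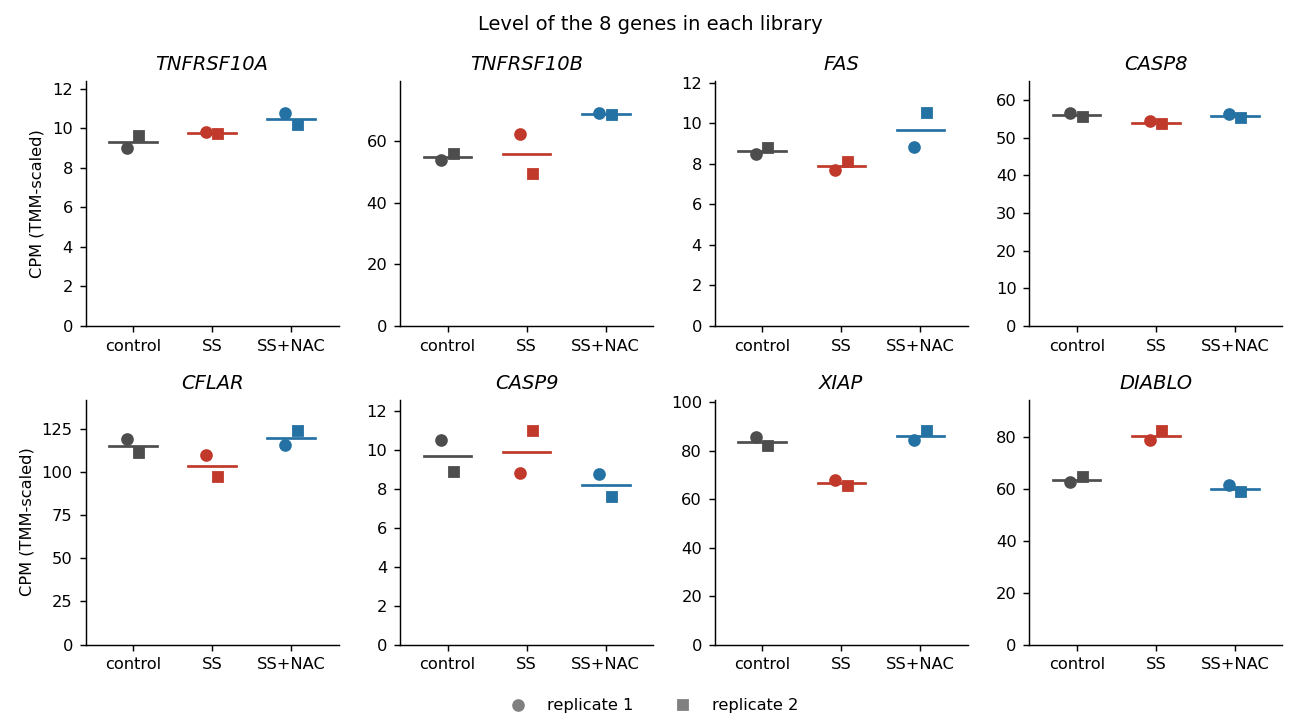
Level of the 8 genes in each of the 6 libraries, in CPM (counts relative to the TMM-scaled library total) from 0. Circles and squares are replicates 1 and 2 and bars are group means. Both SS libraries lie below all others for XIAP (65.4 and 67.9 CPM) and above all others for DIABLO (79.0 and 82.2 CPM).

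Fold changes in the SS libraries followed transcript length across all genes, and the 8 genes differ in length from 1748 effective bases for TNFRSF10A to 8594 for XIAP. Effective length is the length that RSEM used to turn counts into levels. In SS against control, the median log2 fold change was 0.46 in the eighth of tested genes with the shortest transcripts and -0.46 in the eighth with the longest. In SS against SS+NAC these medians were 0.46 and -0.44, and in SS+NAC against control every eighth had a median between -0.02 and 0.02. A fit with a length offset, which takes each library's trend with length out, called 9.23% of all genes in SS against control (1292), 14.4% in SS against SS+NAC (2019) and 2.01% in SS+NAC against control (282). With that offset, edgeR called 0, 1 and 0 of the 8 genes in these comparisons. It gave an unadjusted p under 0.05 for 4, 3 and 1 of them, beside 3555, 4326 and 2445 of the 14005 tested genes. DESeq2's Wald test without the offset called 2, 2 and 0 of the 8. DIABLO in SS against SS+NAC was the 1 gene called with the offset, and not with the replicate number as a block beside it. For the comparisons of SS, values with the offset are given below for each gene, and the origin of the trend was not tested.

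**Figure D2:**
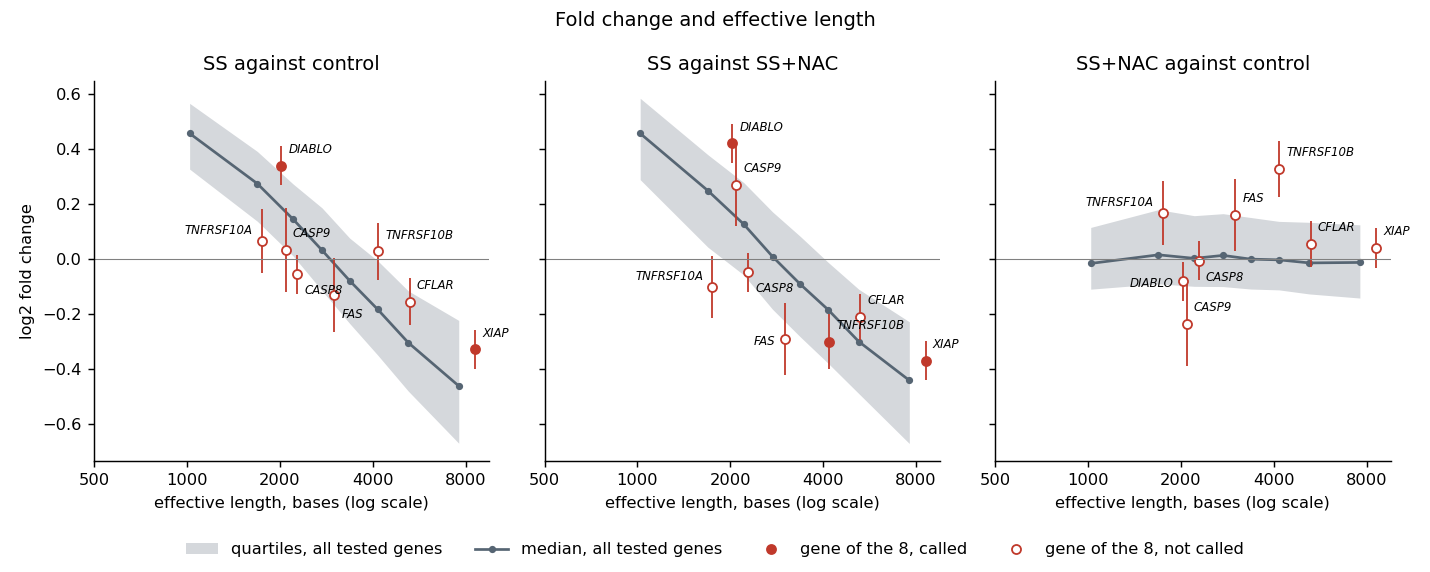
Log2 fold change against effective length on a log axis, for the 3 comparisons. The line and band are the median and quartiles of all tested genes in 8 length classes, and red points with SE bars are the 8 genes, filled where called. XIAP lies in the longest class, whose median was -0.46 in SS against control, and DIABLO in the third, whose median was 0.14.

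Per length, DIABLO had the highest level of the 8 in the control cells, with 61.6 ± 0.502 TPM (mean ± SD, n = 2). CASP8 followed with 47.7 ± 0.792 TPM, CFLAR with 41.4 ± 2.95, TNFRSF10B with 25.9 ± 0.346 and XIAP with 19.2 ± 0.856. The lowest levels were those of TNFRSF10A at 10.5 ± 0.304, CASP9 at 9.29 ± 1.04 and FAS at 5.72 ± 0.375 TPM. No neighbours in this order overlapped between control libraries. The order was the same in the SS and the SS+NAC libraries, where CASP8 and CFLAR overlapped with SS and CASP9 and FAS with SS+NAC. TPM sums to a fixed total, and relative to the authors' FPKM this scaling lowered the SS libraries by 0.18 on the log2 scale, so differences between groups are given in CPM.

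TNFRSF10A (NCBI Gene 8797) encodes death receptor 4 for the ligand TRAIL, and lies on the minus strand of chromosome 8 from 23190452 to 23225102 (RefSeq, GRCh38, as for the other 7 genes). It had 9.004 and 9.589 CPM in the control libraries, 9.81 and 9.68 CPM with SS, and 10.8 and 10.1 CPM with SS+NAC. The SS pair lay between the control and the SS+NAC pair, and all 6 libraries stayed within a narrow range. Its log2 fold change was 0.07 ± 0.12 (SE) in SS against control, -0.10 ± 0.11 in SS against SS+NAC and 0.17 ± 0.12 in SS+NAC against control, none of them called. The length offset turned the first to -0.17 and brought the second to -0.32, also without a call. Leaving out a library moved the first between 0.02 and 0.14, the second between -0.15 and -0.06 and the third between 0.12 and 0.22.

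TNFRSF10B (NCBI Gene 8795) encodes death receptor 5, the other TRAIL receptor that signals death, and lies 121.4 kb from TNFRSF10A on the same strand, from 23020133 to 23069031. The decoy receptor genes TNFRSF10C and TNFRSF10D are between them. It had 53.9 and 55.8 CPM in the control libraries, 62.3 and 49.5 CPM with SS, and 69.2 and 68.5 CPM with SS+NAC. Both SS+NAC libraries were above all others, and the SS libraries lay on either side of the control pair. Against SS+NAC, SS was lower by a log2 fold change of -0.30 ± 0.10 (both SS libraries below both SS+NAC libraries), with an adjusted p of 0.0336 in the quasi-likelihood test of edgeR with Benjamini-Hochberg adjustment. Without SS replicate 2 this value was -0.15 (adjusted p = 0.294 in the same edgeR test), without control replicate 2 it was -0.28 (0.0606) and with the length offset -0.11 (0.472), so each of these ended the call. Without SS replicate 1 it was -0.48 and called. Over the 15 alternatives its adjusted p ranged from 0.00514 to 1.0 in edgeR and DESeq2. In SS+NAC against control the log2 fold change was 0.33 ± 0.10, with an adjusted p of 0.149 in the same edgeR test (0.0753 to 1.0 over the 15 alternatives). The upper limit of each such range, for this gene and the others, was the Bonferroni-adjusted p of the main fit and not that of another fit. SS against control gave 0.03 ± 0.10, which was 0.22 with the length offset, 0.0 without control replicate 1 and -0.15 without SS replicate 1. The gene shares 67 exonic bases with RHOBTB2 on the opposite strand, which had at most 28.7 CPM. Whether the counting used strand is not given in the sources used here.

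FAS (NCBI Gene 355) encodes the receptor of FAS ligand and lies on the plus strand of chromosome 10 from 88964050 to 89017059. It had 8.50 and 8.77 CPM in the control libraries, 7.71 and 8.08 CPM with SS, and 8.82 and 10.5 CPM with SS+NAC. The SS libraries were the lowest 2 and did not overlap the other groups, and the SS+NAC libraries were far from each other. The log2 fold change was -0.13 ± 0.13 in SS against control, -0.29 ± 0.13 in SS against SS+NAC and 0.16 ± 0.13 in SS+NAC against control. None of these was called. The offset gave -0.11 and -0.26 for the first and second, also without a call. The value of SS+NAC against control was 0.03 without SS+NAC replicate 2 and 0.28 without SS+NAC replicate 1. Without SS+NAC replicate 2 the value of SS against SS+NAC was -0.16. Without SS+NAC replicate 1 the value of SS against SS+NAC was -0.41, which was called (adjusted p = 0.0303 in the quasi-likelihood test of edgeR with Benjamini-Hochberg adjustment; 0.0303 to 1.0 over the 15 alternatives). ACTA2 on the opposite strand shares 380 exonic bases (8.93%) with FAS and had at most 1.22 CPM.

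CASP8 (NCBI Gene 841) encodes the initiator caspase of the death receptor complex, on the plus strand of chromosome 2 from 201233463 to 201287711. It had 56.6 and 55.6 CPM in the control libraries, 54.4 and 53.6 CPM with SS, and 56.3 and 55.3 CPM with SS+NAC. Both SS libraries were the lowest by a small margin, and the control and SS+NAC libraries overlapped. The log2 fold change was -0.05 ± 0.07 in SS against control, -0.05 ± 0.07 in SS against SS+NAC and -0.01 ± 0.07 in SS+NAC against control, with no call. The length offset gave -0.17 and -0.15 for the first and second comparison, and these were not called either.

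CFLAR (NCBI Gene 8837), which encodes the caspase-8 homologue c-FLIP, lies 56.8 kb upstream of CASP8 on the same strand, from 201116164 to 201176687, with CASP10 between them. It had 119 and 111 CPM in the control libraries, 110 and 97.1 CPM with SS, and 116 and 123 CPM with SS+NAC. The SS libraries were the lowest 2, with SS replicate 1 close to control replicate 2. The log2 fold change was -0.15 ± 0.08 in SS against control, -0.21 ± 0.08 in SS against SS+NAC and 0.05 ± 0.08 in SS+NAC against control, none of them called. Leaving out SS replicate 1 (-0.30) or SS+NAC replicate 1 (-0.26) brought a call in SS against SS+NAC, while leaving out SS replicate 2 gave -0.12 without one. In SS against control the fits that left out a library ran from -0.25 to -0.07. With the length offset the direction turned, to 0.16 in SS against control and 0.09 in SS against SS+NAC, without a call.

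CFLAR also differed in the length of its measured transcripts. RSEM's effective length of a gene is weighted by the isoforms it assigned reads to, so it can differ between libraries. For CFLAR it was 5452 and 5505 bases in the control libraries, 4912 and 4424 bases in the SS libraries, and 5606 and 5761 bases in the SS+NAC libraries. The SS libraries were the shortest 2, and their mean was 14.8% below control and 17.9% below SS+NAC. CFLAR was the 1 of the 8 genes with an SS mean at least 10% below control and both SS libraries below both control libraries, a pattern that 2.25% of genes with at least 1 FPKM in every library showed (244 of 10864). FAS varied between 2824 and 3252 bases with no order by group, and XIAP stayed between 8582 and 8613 bases. The median over all these genes was a difference of 0.201% between SS and control. This was a description with no test, the isoforms themselves were not analysed here, and the part of the length trend in it was not tested.

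**Figure D3:**
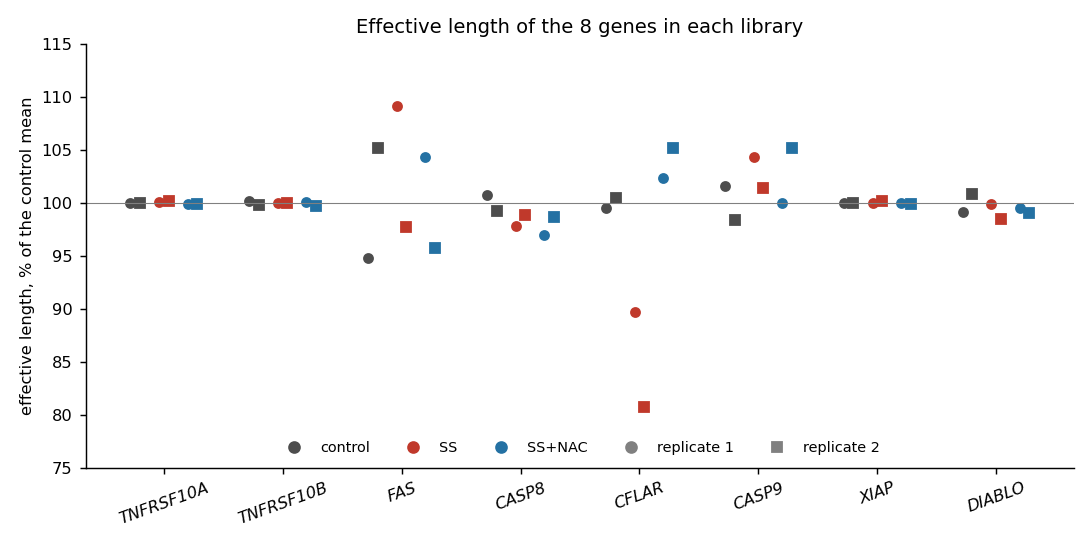
Effective length of each gene in each library, in percent of its control mean. Colours are groups, and circles and squares are replicates 1 and 2. The SS libraries of CFLAR (4912 and 4424 bases) lie below every other library of that gene.

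CASP9 (NCBI Gene 842) encodes the initiator caspase of the apoptosome, on the minus strand of chromosome 1 from 15491401 to 15524912. It had 10.5 and 8.87 CPM in the control libraries, 8.80 and 10.96 CPM with SS, and 8.78 and 7.60 CPM with SS+NAC. The SS and control libraries overlapped completely, and the SS+NAC libraries were the lowest 2. Its log2 fold change was 0.03 ± 0.15 in SS against control, 0.27 ± 0.15 in SS against SS+NAC and -0.24 ± 0.15 in SS+NAC against control, none of them called. Taking out the length trend turned the first to -0.13 and brought the second to 0.13. Leaving out a library moved the first between -0.13 and 0.18, the second between 0.10 and 0.42 and the third between -0.36 and -0.12, with no call. CASP9 had 183 to 240 expected counts per library, few beside those of CASP8, and the largest SE of the 8 genes.

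XIAP (NCBI Gene 331) encodes the X-linked inhibitor that binds caspase-9, on the plus strand of chromosome X from 123859708 to 123913972. It had 85.5 and 81.9 CPM in the control libraries, 67.9 and 65.4 CPM with SS, and 84.2 and 87.9 CPM with SS+NAC. Both SS libraries were well below the other 4, and the control and SS+NAC libraries overlapped. SS was lower than control by a log2 fold change of -0.33 ± 0.07, or 0.796 of the control level, with an adjusted p of 0.00504 in the quasi-likelihood test of edgeR with Benjamini-Hochberg adjustment. Against SS+NAC it was -0.37 ± 0.07, with an adjusted p of 0.00247 in the same edgeR test (0.000889 to 1.0 over the 15 alternatives). SS+NAC against control gave 0.04 ± 0.07, which was not called. XIAP has the longest transcript of the 8, and the median of its length class in SS against control, -0.46, was below its own value. With the length offset the direction turned, to 0.17 ± 0.06 against control (adjusted p = 0.142, edgeR) and 0.11 ± 0.06 against SS+NAC (adjusted p = 0.288, edgeR), and neither was called. Without control replicate 1, SS against control was -0.30 and not called (adjusted p = 0.0679, edgeR; 0.000862 to 1.0 over the 15 alternatives). The lower XIAP level in SS therefore holds relative to the whole library and not relative to genes of like length.

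DIABLO (NCBI Gene 56616) encodes the mitochondrial protein that displaces caspases from XIAP, on the minus strand of chromosome 12 from 122207662 to 122227456. It had 62.9 and 64.5 CPM in the control libraries, 79.0 and 82.2 CPM with SS, and 61.5 and 58.9 CPM with SS+NAC. Both SS libraries were above the other 4, which lay close together. SS was higher than control by a log2 fold change of 0.34 ± 0.07, or 1.27 times the control level, with an adjusted p of 0.00415 in the quasi-likelihood test of edgeR with Benjamini-Hochberg adjustment. Against SS+NAC it was 0.42 ± 0.07, with an adjusted p of 0.00125 in the same edgeR test (5.67e-05 to 1.0 over the 15 alternatives), and SS+NAC against control gave -0.08 ± 0.07 without a call. Its length class had a median of 0.14 in SS against control and 0.13 in SS against SS+NAC. With the length offset the values were 0.17 ± 0.07 against control (adjusted p = 0.146, edgeR), which was not called, and 0.27 ± 0.07 against SS+NAC (adjusted p = 0.024, edgeR), which was called. That last call ended with the replicate block (0.27; adjusted p = 0.0699, edgeR) and in 5 of 6 fits that left out a library beside the offset, chosen after seeing the data, with log2 fold changes of 0.24 to 0.27, and it was kept without SS+NAC replicate 1 (0.29). Without control replicate 1 and with no offset, SS against control was 0.32 and not called (adjusted p = 0.0588, edgeR; 0.000695 to 1.0 over the 15 alternatives). B3GNT4 on the opposite strand shares 971 exonic bases (13.6%) with DIABLO and had at most 2.05 CPM, and a read-through transcript of the same strand, not analysed here, shares 1139.

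**Figure D4:**
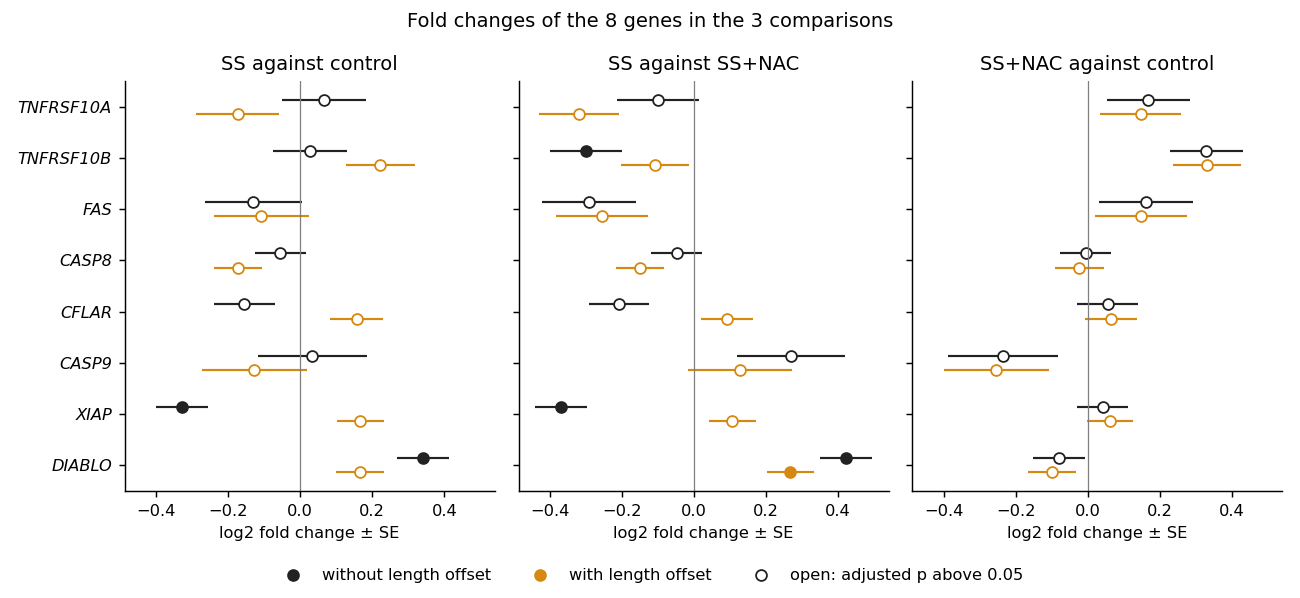
Log2 fold change with SE of the 8 genes in the 3 comparisons, without (black) and with (orange) the length offset. Filled points were called. XIAP lies at -0.33 without and 0.17 with the offset in SS against control, and DIABLO lies above 0 in both fits in both comparisons that involve SS alone.

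The median log2 fold change of the 8 genes was -0.01 in SS against control, beside 0.00 for all tested genes, -0.16 beside -0.03 in SS against SS+NAC, and 0.05 beside 0.00 in SS+NAC against control. In the fit with the offset the medians of the 8 were 0.02, -0.01 and 0.06. The genes whose log2 CPM over the 6 libraries was most like that of DIABLO, the gene of the 8 with the largest difference between SS and control in the fit without the offset, though less than an SE ahead of XIAP and behind it in some alternatives, were DPYSL2, BRK1 and ATIC. Their root mean square differences from DIABLO, after each gene was centred on its mean, were 0.0112, 0.0131 and 0.0178 on the log2 scale. Of the other 7 genes described, CASP9 was nearest to DIABLO at 0.173, at rank 4195 of the 12666 genes compared, and XIAP was the farthest at 0.352.

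Of 68 other genes of these pathways written in lists, 62 were tested. In SS against control 15 were higher and 8 lower, beside 18.6% and 21.4% of all tested genes, with a median log2 fold change of 0.08. After the offset 4 were higher and 2 lower, beside 4.19% and 5.03% of all tested genes, with a median of -0.01. In SS against SS+NAC 16 were higher and 10 lower, beside 19.6% and 23.1% of all tested genes, with a median of 0.06, and with the offset 8 and 3, beside 7.04% and 7.38%, with a median of 0.01. These shares of all tested genes are also the ones to set beside the counts of each list below, and Bonferroni adjustment ended the call of every list gene named there. In SS+NAC against control edgeR called 0 of 62, and DESeq2's Wald test called 1. In edgeR 15 of the 62 had an unadjusted p under 0.05, beside 2256 of the 14005 tested genes. Without SS+NAC replicate 1 edgeR called 12 of them, and 1086 genes in all. With the offset edgeR called 1, the adaptor gene FADD (-0.36; named after its values were seen), whose call ended with the replicate block beside the offset. The ligand of both TRAIL receptors, TNFSF10, had 0.723 and 0.362 CPM in the control libraries, 1.83 and 0.776 CPM with SS and 1.45 and 2.62 CPM with SS+NAC. Its log2 fold change was 1.31 in SS against control, -0.63 in SS against SS+NAC and 1.94 in SS+NAC against control. With all libraries, edgeR called none of the 4 tested ligands in any comparison, with or without the offset.

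Among the 8 other death and decoy receptors, 3 were higher and 1 lower in both comparisons of SS, and with the offset only TNFRSF21 in SS against SS+NAC was called (-0.54, and -0.41 with the offset). Its call against control (-0.32) was lost without control replicate 1 (-0.27), control replicate 2 (-0.35), SS replicate 1 (-0.38) or SS replicate 2 (-0.27), with the replicate block (-0.32) and in DESeq2's Wald test (-0.32). The decoy receptor TNFRSF6B was higher by 0.50 and 0.52, which were 0.10 and 0.12 with the offset. TNFRSF25, a death receptor, was higher by 0.68 and 0.58 (0.35 and 0.27 with the offset, not called), and it lost both calls without SS replicate 1 (0.54 and 0.45) or SS replicate 2 (0.79 and 0.70). It also lost them without control replicate 1 (0.51 and 0.58), and in DESeq2's Wald test (0.69 and 0.61), and the second without SS+NAC replicate 2 (0.43) and with the replicate block (0.58). Of 15 adaptors and receptor complex regulators, 3 were higher and 1 lower in SS than in control, and 3 and 2 against SS+NAC, and with the offset none was called against control and 2 were higher against SS+NAC. Of 6 other initiator and inflammatory caspases, 3 were higher in SS than in control and none was called against SS+NAC, and with the offset 1 was higher than control. CASP1 was higher by 0.64, which was 0.32 and not called with the offset, and it also lost the call without control replicate 1 (0.49), SS replicate 1 (0.63) or SS replicate 2 (0.64).

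CASP6, a caspase gene, was higher by 0.38 and 0.31, values of 0.11 and 0.06 with the offset, and lost the first call without control replicate 1 (0.34) or SS replicate 2 (0.36) and the second without SS replicate 1 (0.33), SS replicate 2 (0.29) or SS+NAC replicate 1 (0.29). DESeq2's Wald test ended both calls of CASP6 (0.39 and 0.34), and the replicate block the second (0.31). BID, which caspase-8 cleaves to link both pathways, was higher by 0.43 and 0.51, and by 0.29 and 0.39 with the offset, also called, but the first of these not with the replicate block beside the offset (0.29). Of the 10 genes in the list that holds CASP6 and BID, 4 were higher and 1 lower in SS than in control, and 3 and 1 against SS+NAC. With the offset 1 was higher and 1 lower than control, and 2 and 1 against SS+NAC. No lower gene of this list is described here.

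Of the 6 apoptosome genes, none was higher and 2 were lower in SS than in control, and 3 and 1 against SS+NAC. With the offset 1 was higher than control and 2 were higher against SS+NAC, and none was lower. APAF1 was lower by -0.62 and -0.47, which the offset brought to -0.23 and -0.09 without a call. PRELID1 was higher against SS+NAC by 0.51, which was 0.16 with the offset and 0.37 without SS replicate 2, neither of them called. Of 5 other IAP genes, the family of XIAP, 2 were lower than control, and against SS+NAC 1 was higher and 3 lower, while with the offset 1 was lower than control and none was called against SS+NAC. BIRC2 was lower by -0.56 than control (-0.48 with the offset, called) and by -0.33 than SS+NAC, which was -0.25 with the offset and -0.34 without SS replicate 2, neither of them called. BIRC6, with a transcript even longer than that of XIAP, turned from -0.52 and -0.40 to 0.13 and 0.22 with the offset. NAIP was lower against SS+NAC by -0.53, which was -0.17 with the offset and -0.34 without SS replicate 2, neither of them called, and BIRC3 was not called.

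Of the 6 IAP antagonists and XIAP regulators, 2 were higher and 1 lower in SS than in control, and 2 and 2 against SS+NAC, and with the offset 1 was higher than control, and 1 was higher and 1 lower against SS+NAC. HTRA2, which like DIABLO is a mitochondrial antagonist of XIAP, was higher by 0.42 and 0.51, and by 0.36 and 0.46 with the offset, all called. Against control it was not called without SS replicate 2 (0.33) or, beside the offset, with the replicate block (0.36). XAF1 was lower against SS+NAC by -0.81 (-0.75 with the offset, called), which was -0.76 and not called without SS replicate 2. COMMD1 was higher by 0.45 and 0.50, but turned to -0.05 and -0.03 with the offset, and without control replicate 1 the first was 0.40 and not called. Of the 2 tested necroptosis genes, 1 was higher against SS+NAC and none was called against control.

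**Figure D5:**
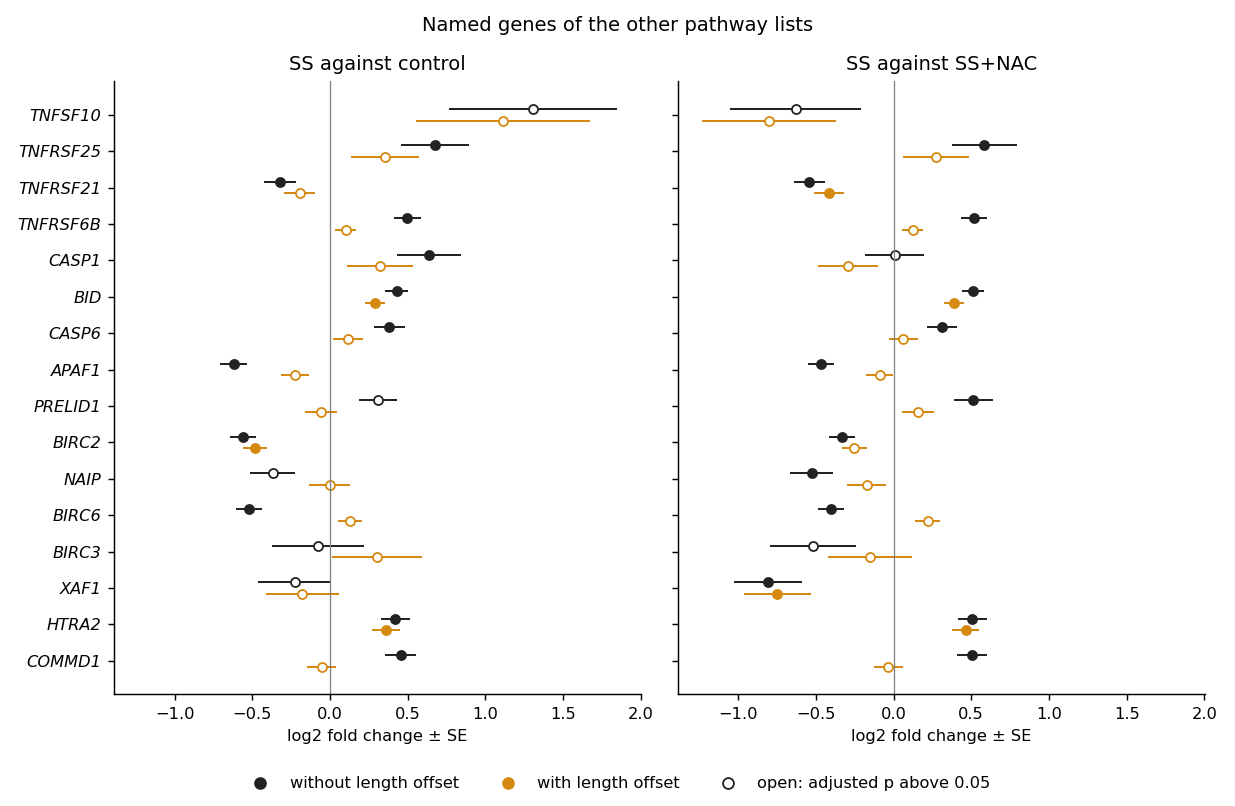
Log2 fold change with SE of list genes named by rule or in any case, in SS against control and SS against SS+NAC, without (black) and with (orange) the length offset. Not every gene that met the rule is drawn. Filled points were called. BID and HTRA2 stay on the same side of 0 and filled in both fits, while BIRC6 and COMMD1 change sides.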

How the data were processed

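RNA of KHM-5M cells was measured in 6 libraries, 2 in each of control, SS and SS+NAC. Per the labels, polyadenylated RNA was captured, fragmented, copied from random primers and read from 1 end. The authors filtered reads with SOAPnuke, and the submitters' processing notes name HISAT2 2.0.4, Bowtie2 2.2.5 and RSEM 1.2.12. The deposited table gives expected counts, which the authors obtained from RSEM, and the FPKM and TPM values that the authors derived from them. Its 9 columns of group means and 9 of the authors' comparisons (log2 fold changes, p-values and q-values) were not used.

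Expected counts were rounded to whole numbers, filtered with filterByExpr and scaled with TMM in edgeR 4.0.16 (R 4.3.3). All 6 libraries were fitted together with glmQLFit and compared with glmQLFTest, with Benjamini-Hochberg adjustment over all 14005 tested genes. The study's methods name a Bonferroni-based q and biological replicates, and Bonferroni adjustment was an alternative. Effective length was computed from the expected counts and FPKM. The length offset was a lowess fit (span 0.3) of each library's log2 CPM deviation on log effective length. The other alternatives were no filter or a stricter one, DESeq2 1.42.0 for size factors or for its Wald test, each comparison fitted alone, a replicate block and leaving out each library. Summary tables came from pandas 2.3.3 and numpy 2.4.6 under Python 3.11.15, and matplotlib 3.10.9 drew the figures.

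The 8 genes and the lists were chosen with earlier results of these data known. All 8 genes were named. List genes were named when called in SS against control or SS against SS+NAC with a log2 fold change of at least 0.5 in size and a group mean of 1 CPM or more, up to 4 a list, and not every such gene, nor every list, is described here. CASP6, APAF1, BIRC2, BIRC3 and TNFSF10 were named in any case, as were the 3 genes closest in pattern to the gene with the largest difference. Exon overlaps came from GENCODE release 29. The motif codons were found by translating the transcripts and searching for the known tetrapeptides.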

Additional observations from a re-analysis of the deposited data

How the results depend on the processing

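Under Bonferroni adjustment the genes called fell to 220 in SS against control, 191 in SS against SS+NAC and 40 in SS+NAC against control, the 8 genes described to 0, 0 and 0, and the list genes to 1, 1 and 0, since that adjustment is stricter. With the length offset the genes called were 1292 and 2019 in the first and second comparison, the described genes 0 and 1, and the list genes 6, 11 and, in SS+NAC against control, 1. The replicate block alone, a fit with the replicate number as a block, called 4857, 5136 and 211 genes and 2, 3 and 0 of the 8. With offset and replicate block together the genes called were 851, 1366 and 202, the described genes 0, 0 and 0, and the list genes 3, 7 and 0. The numbers do not pair the samples: deviations of equal numbers correlated at 0.113, -0.105 and -0.175 over genes. DESeq2's Wald test called 1 list gene in SS+NAC against control.

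Leaving out 1 library gave 3118 to 6579, 3250 to 6339 and 98 to 1086 genes called in the 3 comparisons, 0 to 2, 2 to 5 and 0 to 0 of the 8, and 11 to 29, 10 to 31 and 0 to 12 list genes. The lowest counts came without control replicate 1 in SS against control and without SS replicate 2 in SS against SS+NAC, and the highest in SS+NAC against control without SS+NAC replicate 1. The lone library of a group is then assumed to vary like the others.

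The directions listed first are for the genes and comparisons whose values were summarised under all alternatives. Those that turned with the length offset, and with the length offset with replicate block, in SS against control were those of TNFRSF10A (-0.17, -0.17), CFLAR (0.16, 0.16), CASP9 (-0.13, -0.13), XIAP (0.17, 0.17), BIRC6 (0.13, 0.13) and COMMD1 (-0.0541, -0.0535). In SS against SS+NAC they were those of CFLAR (0.0914, 0.0897), XIAP (0.11, 0.11), BIRC6 (0.22, 0.22) and COMMD1 (-0.0335, -0.0335). Outside those genes and comparisons, the length offset also turned PRELID1 (0.31 to -0.06), FADD (0.16 to -0.06), BIRC3 (-0.08 to 0.30) and TNFRSF10D (-0.01 to 0.11) in SS against control. In SS against SS+NAC it also turned CASP1 (0.0072 to -0.29). With at least 10 counts in every library, CASP8 was at 0.0023 in SS+NAC against control. Leaving out a library turned TNFRSF10B (-0.15 to 0.18) and CASP9 (-0.13 to 0.18) in SS against control and CASP8 (-0.0206 to 0.0059) in SS+NAC against control. The cause was not tested. With other filters, other size factors and the compared libraries alone, the called described genes kept their call except TNFRSF10B with the compared libraries alone (-0.29) and under DESeq2's Wald test (-0.28). Groups of 2 libraries limit all of these tests.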

Other observations

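DIABLO and XIAP, antagonist and inhibitor, can be set against each other within a library as a ratio of their TPM, a pair chosen after their values were seen. The ratio of DIABLO to XIAP was 3.13 and 3.29 in the control libraries, 4.91 and 5.41 with SS, and 3.10 and 2.85 with SS+NAC. Both SS libraries were above the other 4. The length trend is not taken out of this ratio, whose genes differ in effective length by 2026 against 8594 bases. With the length offset, DIABLO and XIAP both had a log2 fold change of 0.17 in SS against control, and 0.27 and 0.11 in SS against SS+NAC. Their ratio was not tested on either scale.

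Other genes outside the naming rule, chosen after their values were seen, were CYCS and FADD. CYCS, which encodes cytochrome c, had 258 and 225 CPM in the control libraries, 263 and 291 CPM with SS and 217 and 223 CPM with SS+NAC. Its log2 fold change in SS against control was 0.20 without a call, and 0.54 with the length offset, which was called. In SS against SS+NAC it was 0.33, and 0.66 with the length offset, both called, and with no offset 0.26 without a call when SS replicate 2 was left out. FADD had 66.5 and 70.7 CPM in the control libraries, 73.8 and 79.3 CPM with SS and 57.3 and 51.5 CPM with SS+NAC, and was higher in SS than in SS+NAC by 0.49 (0.30 with the offset, called, but not with the replicate block beside the offset).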
